A study of Mus musculus with 27 samples.

Results

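The 10 mouse genes described here are listed as writers, erasers and readers of DNA methylation. The writers are the DNA methyltransferase genes Dnmt1, Dnmt3a, Dnmt3b and Dnmt3l, and the erasers the methylcytosine dioxygenase genes Tet1, Tet2 and Tet3. Listed as readers are Uhrf2, Mbd1 and Mbd3. Whether each product, that of Mbd3 included, binds methylated DNA was not tested here. All 10 genes were chosen by name. Every position from 5 kb upstream of a gene's start to 1 kb past its end was taken if it had a value in all 27 libraries. Of these genes 8 held at least 1 such position, 796 positions in all out of 871894 in the whole data set, and Tet1 and Tet3 were unmeasured. The positions fell into 13 runs, a run being at least 3 positions with gaps of at most 200 bp, out of 18448 runs over the genome.

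The cells were C2C12, mouse muscle precursors of an established line that fuse into myotubes, differentiated in 2% horse serum and then given 50% horse serum for 2 h, a shock that sets cultured cells to a shared circadian phase. Their DNA was profiled by reduced representation bisulfite sequencing (RRBS) at 9 time points, the first 12 h and the last 60 h after the shock and 6 h apart, with 3 replicates each, so all groups share the line, the differentiation and the shock and differ only in time. Unshocked cells were not analysed here. The labels do not say whether replicates were separate cultures, so the p-values speak only to the spread among these libraries, part or all of which may be technical.

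Cytosines in CG pairs carry most of the methylation of mammalian DNA. Dnmt3a and Dnmt3b place it on unmethylated DNA, helped by Dnmt3l, which has no catalytic activity of its own, and Dnmt1 copies it to the new strand after replication. Tet enzymes oxidise methylcytosine, which starts its removal, while proteins such as Uhrf2 and Mbd1 bind modified CG pairs and bring other factors to them. In RRBS the enzyme MspI, which the labels write as MpsI, cuts at CCGG, so that the measured positions cluster in CG-rich stretches around gene starts. The values are the deposited methylation levels of positions, in percent, and differences are in percentage points. Levels changed gradually between neighbouring positions. Near the Dnmt3b start, for example, the means over libraries were 1.35%, 1.34% and 1.32% at positions 153649459, 153649460 and 153649463. A position's level may therefore not be its own share of methylated reads. Whether the levels were smoothed over neighbouring positions was not tested. The number of reads behind a level is unknown, so no interval from read counts can be given. The levels say nothing by themselves about how strongly a gene was expressed.

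Over all kept positions the mean level of a library lay between 11.4% and 12.7%. Between 5.15% (24 h, replicate 3) and 25.4% (12 h, replicate 3) of a library's kept positions stood at exactly 0. The part that this difference plays in the low levels below was not tested.

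The runs of these genes spanned nearly the whole scale. A run in Dnmt1 was the most methylated at 93.2% ± 3.53 (SD over 27 libraries), followed by the second run of Dnmt3b at 66.8% ± 23.1 and the 3 runs of Dnmt3l at 51.0% ± 8.61, 32.8% ± 10.1 and 20.9% ± 6.66. The first run of Uhrf2, at 22.9% ± 2.72, came between the second and the third of these. The other 7 runs, in Mbd3 (both), Mbd1, Tet2, Dnmt3b, Dnmt3a and Uhrf2, lay between 1.72% and 3.75%. Of the 12 steps between neighbours in this order, only 3 exceeded the larger of the neighbours' SDs: from Dnmt1 to the second Dnmt3b run, from the first to the second Dnmt3l run, and from the third Dnmt3l run to the upstream Mbd3 run. Even at these steps the ranges of single libraries overlapped. The median of the 13 runs was 3.75%, against 6.23% over all runs, and 53.8% of them lay under 10%, against 57.4% of all runs.

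**Figure D1:**
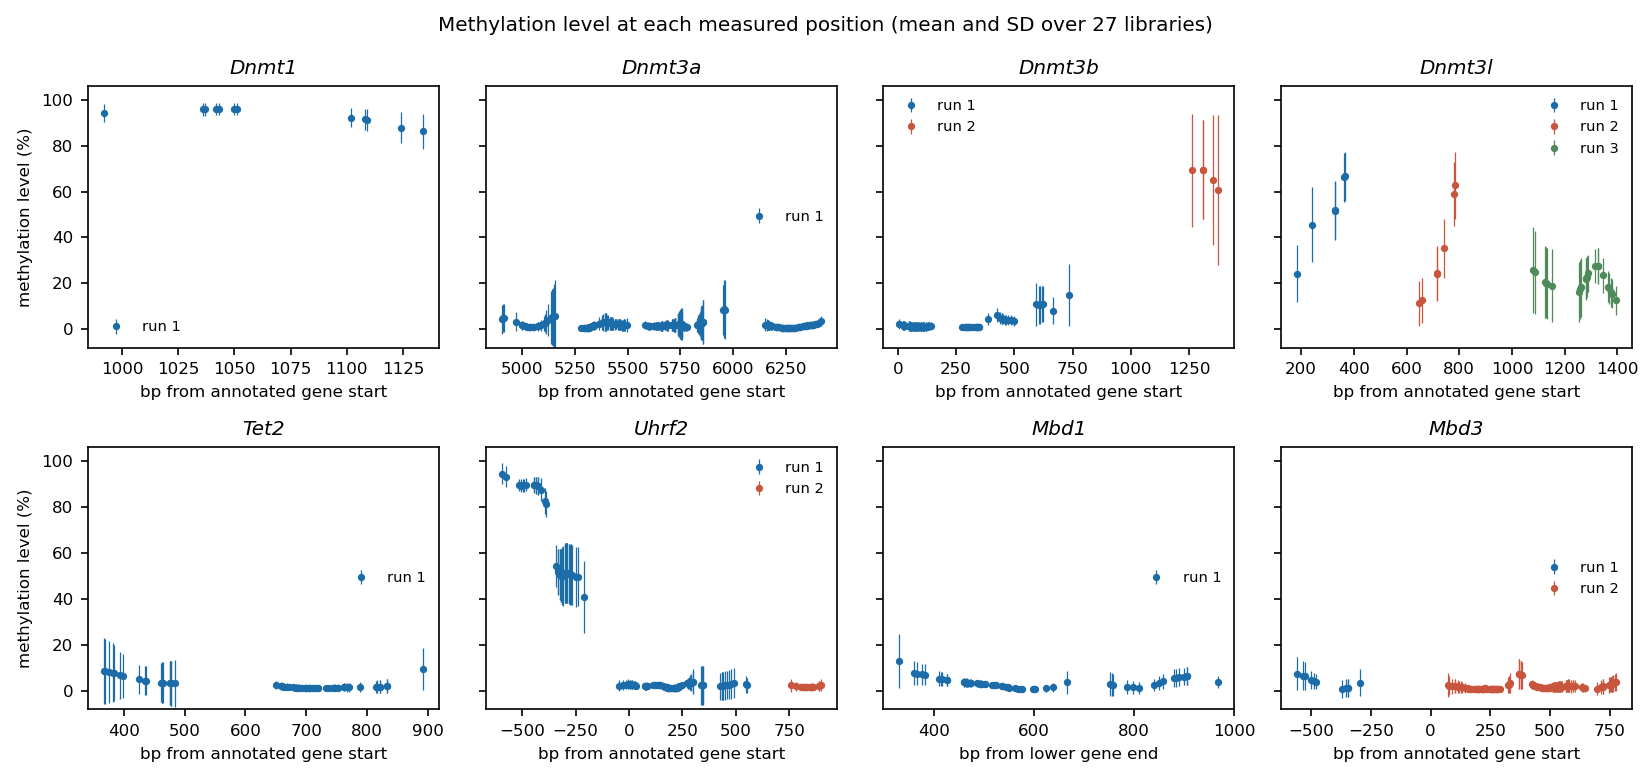
Methylation level (%) of every measured position in the 8 measured genes against its distance in bp from the annotated gene start (for Mbd1, from the gene's lower end, since its strand is not used here). Points are means and bars SDs over 27 libraries, coloured by run. Uhrf2 passes from about 90.0% to 2.17% within 1 run, Dnmt3a, Tet2, Mbd1 and Mbd3 stay low throughout, and the wide bars of the second Dnmt3b run show its spread between libraries.

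Dnmt1, the maintenance methyltransferase gene, was measured in a single run of 12 positions inside the gene (mm10, chr9:20958754-20958896), 992 to 1134 bp from its outermost annotated start. The level lay between 85.0% (60 h, replicate 1) and 99.5% (60 h, replicate 2), with a median of 93.8%. The lowest and the highest library thus both came from the last time point. Position means ran from 86.2% to 96.0%, so no position of the run was low. RefSeq lists starts of Dnmt1 at 20959888, 20952979 and 20952623 on the minus strand. The run lies 5775 to 5917 bp and 6131 to 6273 bp upstream of the other 2. None of the 3 promoter windows (250 bases before to 50 after a start) held a measured position, although the last of them holds 33 CG pairs and 4 CCGG sites, so the level of 93.2% describes a stretch inside the gene and not a promoter.

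Dnmt3a, one of the de novo methyltransferase genes, carried 240 positions in 1 run, the longest of the 13 (chr12:3806464-3807972). It lies 4905 to 6413 bp from the outermost start and therefore counts as gene body by the rule used here, but it spans 2 other starts that RefSeq lists, at 3806980 and 3807160. Its level was 1.83% ± 0.759, with a lowest library of 0.813% (36 h, replicate 2), a median of 1.68% and a highest of 3.30% (30 h, replicate 1). All 240 position means lay under 10%, from 0.371% to 8.82%. In the promoter window of the start at 3806980, 51 positions averaged 1.76% ± 1.58. The start at 3891744 was not measured. For each member with at least 3 measured positions in a promoter window, 1 such window is printed, and this one held the most. It holds 46 CG pairs and 8 CCGG sites, and 27 of the CG pairs, from base 109 on, carried a measured position. CG pairs are in capitals, here and in the sequences that follow, and all are from RefSeq on GRCm38.p6, the assembly that mm10 names.
Dnmt3a chr12:3806730-3807029, plus strand: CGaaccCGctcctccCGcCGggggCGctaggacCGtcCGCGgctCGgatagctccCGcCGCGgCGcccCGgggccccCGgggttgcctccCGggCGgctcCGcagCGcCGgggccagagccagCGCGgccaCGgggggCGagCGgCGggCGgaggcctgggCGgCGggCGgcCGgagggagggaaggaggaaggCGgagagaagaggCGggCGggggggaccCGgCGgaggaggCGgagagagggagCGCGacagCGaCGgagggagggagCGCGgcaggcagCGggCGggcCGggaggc

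Dnmt3b, the other de novo methyltransferase gene, was low at its start and high further in. Its first run (85 positions, chr2:153649416-153650145) covers 5 to 734 bp from the gene start and had a level of 2.38% ± 1.44, from 0.766% (12 h, replicate 3) over a median of 2.27% to 8.46% (24 h, replicate 1). From 0 to 400 bp the means of the 100 bp bins lay between 0.908% and 1.30%. They were 4.43% ± 2.24 from 400 to 500 bp and 10.3% ± 7.45 from 600 to 700 bp, and the single position at 734 bp stood at 14.9% ± 13.5. The second run (5 positions, chr2:153650676-153650788) begins 531 bp further on and stood at 66.8%. Within it the position means lay between 60.8% and 69.5%, and the stretch between the runs was not measured. The Dnmt3b promoter window held 26 measured positions in its last bases, which were low, at 1.34% ± 1.95. It has 30 CG pairs, 13 of them measured, from base 218 on, and 7 CCGG sites.
Dnmt3b chr2:153649199-153649498, plus strand: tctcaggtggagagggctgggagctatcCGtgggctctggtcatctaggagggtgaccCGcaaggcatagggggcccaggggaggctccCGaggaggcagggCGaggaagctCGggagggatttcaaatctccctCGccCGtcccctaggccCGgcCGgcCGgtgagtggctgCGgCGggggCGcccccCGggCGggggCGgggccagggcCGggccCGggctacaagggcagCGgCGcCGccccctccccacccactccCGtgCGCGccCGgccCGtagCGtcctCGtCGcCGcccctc

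The second Dnmt3b run stood apart by its spread. Among 2789 runs of 3 to 10 positions with a level of 10% to 90%, whose median SD was 7.39 points, its SD of 23.1 points was larger than that of 99.4%. Its levels in replicates 1 to 3 were 100%, 80.1% and 62.1% at 12 h, 79.2%, 54.9% and 63.0% at 18 h, and 42.8%, 52.0% and 93.5% at 24 h. At 30 h they were 24.7%, 75.3% and 94.8%, at 36 h 91.5%, 41.6% and 61.6%, and at 42 h 34.0%, 25% and 31.7%. At 48 h they were 83.8%, 84.7% and 65.2%, at 54 h 82.4%, 60.3% and 92.9%, and at 60 h 74.0%, 97.8% and 54.3%. The 3 libraries of 42 h were low together, between 25% and 34.0%, whereas the other 24 libraries ran from 24.7% to 100% with a median of 74.7%, and 1 of them (30 h, replicate 1) lay below 34.0%. Replicates of most other times were far apart, with a pooled SD within time points of 21.3 points. All 5 positions stood at exactly 100% in replicate 1 of 12 h and at 25% in replicate 2 of 42 h. The part that few reads may have in such values was not tested, since the depth is unknown.

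Dnmt3l, the gene of the catalytically inactive partner of the de novo enzymes, was intermediate throughout its measured stretch. Run 1 (6 positions, chr10:78042470-78042652, 183 to 365 bp from the start) ranged over libraries from 37.2% to 76.4% with a median of 50.3%. Run 2 (7 positions, chr10:78042935-78043071) ranged from 7.08% to 49.3% with a median of 34.5%, and run 3 (22 positions, chr10:78043367-78043682) from 9.09% to 38.3% with a median of 22.4%. Within run 1 the position means spanned 24.2% to 66.7%, and within run 2 they spanned 11.4% to 62.7%. All 3 runs also lie in Aire, the autoimmune regulator gene on the opposite strand, and run 3 spans the Aire start, from 72 bp before it to 243 bp after it. The 13 measured positions of the Aire promoter window averaged 21.4% ± 6.23. None of the 3 Dnmt3l promoter windows held a measured position, and none contains a CCGG site. Levels of these runs therefore belong to Dnmt3l and Aire alike and cannot be assigned to 1 of them.

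Among the erasers only Tet2 was measured, in 1 run of 63 positions (chr3:133544243-133544769) from 379 bp before to 147 bp after its RefSeq start at 133544390. The level was 2.69% ± 2.26, with a lowest library of 0.215% (24 h, replicate 1), a median of 2.30% and a highest of 9.53% (54 h, replicate 1). Its promoter window is among the densest in CG pairs of all mouse promoters: its 57 pairs exceed those of 99.8% of 32851 windows, whose median is 7. It holds 5 CCGG sites, and 26 of its CG pairs were measured, at 1.40% ± 1.26 over 37 positions from base 156 on. CCGCGAGGGAGC, the first of 3 overlapping 12-letter words that are tied as the most frequent in this window, occurs 5 times on the strand shown, with no overlap with itself, and 0 times on the other. Searched on both strands, it occurs in 1 of all windows (0.00304%), that of Tet2. Since the word was taken from that window, its presence there was given. How many windows hold other 12-letter words was not counted, so the share does not show that this word is rare.
Tet2 chr3:133544341-133544640, minus strand: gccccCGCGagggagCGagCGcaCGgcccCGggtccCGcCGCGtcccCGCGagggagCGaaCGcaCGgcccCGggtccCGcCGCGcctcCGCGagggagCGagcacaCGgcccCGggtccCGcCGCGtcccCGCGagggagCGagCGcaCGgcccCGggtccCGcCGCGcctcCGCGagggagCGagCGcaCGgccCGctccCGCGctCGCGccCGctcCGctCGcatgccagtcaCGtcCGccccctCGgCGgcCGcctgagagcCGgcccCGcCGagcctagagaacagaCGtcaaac

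The 19 Tet2 positions farthest upstream (chr3:133544652-133544769) had a level of 5.15% ± 7.31. In replicates 1 to 3 they stood at 9.42%, 7.96% and 14.1% at 12 h, at 0.630%, 0.958% and 8.54% at 18 h, at 0%, 0% and 21.5% at 24 h, and at 0%, 3.32% and 7.30% at 30 h. They stood at 2.54%, 0% and 2.21% at 36 h, at 0%, 2.31% and 1.45% at 42 h, and at 1.78%, 2.26% and 0% at 48 h. At 54 h the values were 29.0%, 14.0% and 9.29%, and at 60 h 0%, 0.463% and 0%. All 3 libraries of 54 h and of 12 h lay above the median of 2.21%, and all 3 of 60 h lay near 0. The ranges of 54 h and of 12 h overlapped each other and that of 24 h.

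Tet1 and Tet3, the other 2 genes of the family, had no position in the table between 5 kb upstream and 1 kb past the gene. Their promoter windows hold 17 and 22 CG pairs, with 2 and 4 CCGG sites.

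Uhrf2, which encodes a ubiquitin ligase related to Uhrf1 that binds modified CG pairs, showed a boundary just upstream of its start. Its first run (123 positions, chr19:30029834-30030981) reaches from 596 bp before to 551 bp after the gene start, and its mean of 22.9% joins stretches of very unlike level. The 14 positions more than 400 bp before the start stood at 90.0% ± 2.75, with libraries from 85.7% to 95.1%. The 26 positions from 394 to 212 bp before the start stood at 53.0% ± 10.9, from 31.4% to 80.4%. The 83 positions from 46 bp before the start on stood at 2.17% ± 1.11, from 0.596% to 4.89%. The limits of these stretches were chosen from this profile after it was seen, so that their ranges do not overlap is no test of a boundary. The middle stretch varied most between libraries. A second run (21 positions, chr19:30031187-30031327, 757 to 897 bp into the gene) stayed low at 1.75% ± 1.39, from 0% to 5.10% with a median of 1.50%. The 24 measured positions of the promoter window below lie on the low side of that boundary and averaged 2.35% ± 1.40. This window is printed by the rule given for Dnmt3a. It has 28 CG pairs, 19 of them measured from base 122 on, and 1 CCGG site.
Uhrf2 chr19:30030263-30030562, plus strand: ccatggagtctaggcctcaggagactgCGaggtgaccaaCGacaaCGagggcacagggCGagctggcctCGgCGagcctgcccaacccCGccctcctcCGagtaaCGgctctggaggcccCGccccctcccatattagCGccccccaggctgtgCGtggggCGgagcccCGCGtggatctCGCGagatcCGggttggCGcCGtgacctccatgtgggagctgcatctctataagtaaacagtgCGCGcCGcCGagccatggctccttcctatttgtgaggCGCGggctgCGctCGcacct

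CCGG, whose letters read the same on both strands and whose middle is itself a CG pair, occurs in 52.8% of all 32851 promoter windows, and it occurs in each of the 4 printed here. All 4 hold more CG pairs than at least 85.8% of windows. The 4 were printed because they held measured positions, which RRBS places in CG-rich DNA near CCGG. Both traits can therefore follow from that choice. The measured positions in all 4 averaged between 1.34% and 2.35%.

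Mbd1, a reader gene that binds methylated CG pairs, was low in 62 positions between 331 and 969 bp inside the gene's lower end (chromosome 18, 74267936 to 74268574). Its level was 3.40% ± 1.35, from 1.07% (30 h, replicate 2) over a median of 3.11% to 7.03% (12 h, replicate 3). The bin nearest the gene's end was highest, at 8.47% ± 5.45 from 300 to 400 bp, against 1.38% ± 1.63 from 600 to 700 bp and 5.69% ± 3.34 from 900 to 1000 bp. Mbd3, the gene of a subunit of the NuRD chromatin complex, had 2 low runs. The upstream one (11 positions, chr10:80399825-80400092, 561 to 294 bp before the start) stood at 3.75% ± 3.22, from 0% to 11.6% with a median of 3.03%. The one inside the gene (139 positions, chr10:80398754-80399460, 71 to 777 bp from the start) stood at 1.72% ± 0.972, from 0.141% to 4.23% with a median of 1.80%. The promoter window between them, with 22 CG pairs and 0 CCGG sites, held no measured position.

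By zone, 8 runs of 5 of these genes fell at the start (5 kb outside to 1 kb inside it), with a median level of 3.22% and 62.5% of them under 10%. Over all genes with a strand in the tables, 15599 start runs of 11471 genes had a median of 4.39% and 64.4% under 10%. The 4 body runs, 1 each of Dnmt1, Dnmt3a, Dnmt3b and Dnmt3l, had a median of 43.8%, against 17.3% over 3898 body runs, and they ranged from 1.83% to 93.2%. With the start zone narrowed to 1 kb outside and 500 bp inside the start, 7 runs counted as body and their median was 20.9%, against 11.9% over 6177 body runs. The Mbd1 run was not placed in a zone, since the gene's strand is not used here. None of the placed runs fell at a gene end.

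**Figure D2:**
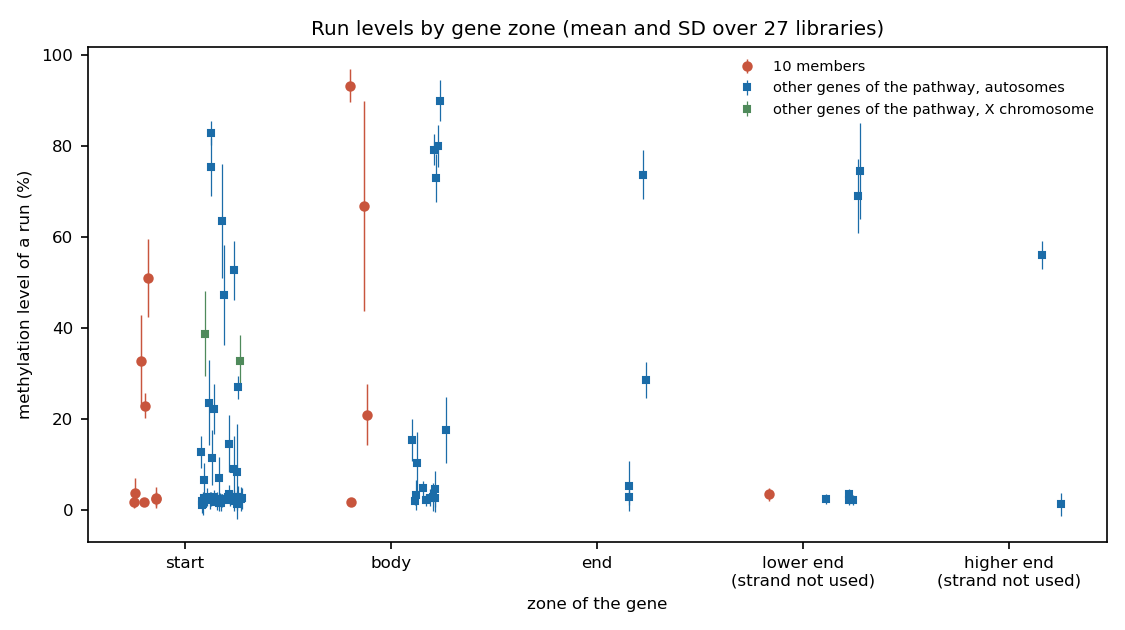
Methylation level (%) of runs by zone of the gene, as means with SD bars over 27 libraries, for the 10 genes (red circles, left of each zone) and for other genes of the pathway on autosomes (blue squares) and the X chromosome (green squares, 2 genes). Start runs lie mostly under 10% in both sets, and the X-linked runs of Zbtb33 and Ogt stand at 32.7% and 38.7%.

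Whether these levels cycled with the clock was asked with a 24 h cosine and sine fitted to all 27 libraries by limma, with p-values adjusted over all 18448 runs by the Benjamini-Hochberg method at a threshold of 0.05. No run of the 13 passed, and 0 had an unadjusted p under 0.05, with 0% of all runs passing and 4.34% (800 runs) at an unadjusted p under 0.05. The smallest p belonged to Mbd1, with an amplitude of 0.896 points (SE 0.377, unadjusted 0.0772 and adjusted p = 0.980 in limma). Its levels in replicates 1 to 3 were 4.18%, 6.04% and 4.80% at 18 h, 2.51%, 1.07% and 2.95% at 30 h, and 1.46%, 5.44% and 3.47% at 42 h, so the ranges of 18 h and 30 h did not overlap but that of 42 h overlapped both. The second Dnmt3b run followed with 12.2 points (SE 6.23, unadjusted 0.167) and run 2 of Dnmt3l with 4.85 points (SE 2.77, unadjusted 0.236), both with an adjusted p = 0.980.

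A missed threshold does not show the absence of a rhythm. The upper 95% limit of the amplitude gives the size that the data allow for the mean of a run, not for each part of it. It was 0.867 points at Dnmt3a, 0.911 at the inner Mbd3 run, 1.27 at the second Uhrf2 run, 1.49 at the first Dnmt3b run, 1.88 at Mbd1, 2.71 at Tet2, 2.83 at Dnmt1, 3.11 at the first Uhrf2 run and 3.49 at the upstream Mbd3 run. The limits were wide at Dnmt3l, with 9.96, 12.1 and 7.49 points for runs 1 to 3, and widest at the second Dnmt3b run, with 28.4 points. Parts of a run differed. The fitted amplitude was 2.53 points (SE 2.09) in the 40 upstream positions of the first Uhrf2 run and 0.477 (SE 0.335) in its other 83. In Tet2 it was 4.10 (SE 1.97) in the 19 positions farthest upstream and 0.309 (SE 0.369) in the other 44. The limits above therefore do not hold for these parts. The median fitted amplitude of the 13 runs was 1.04 points, against 0.870 points over all runs.

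**Figure D3:**
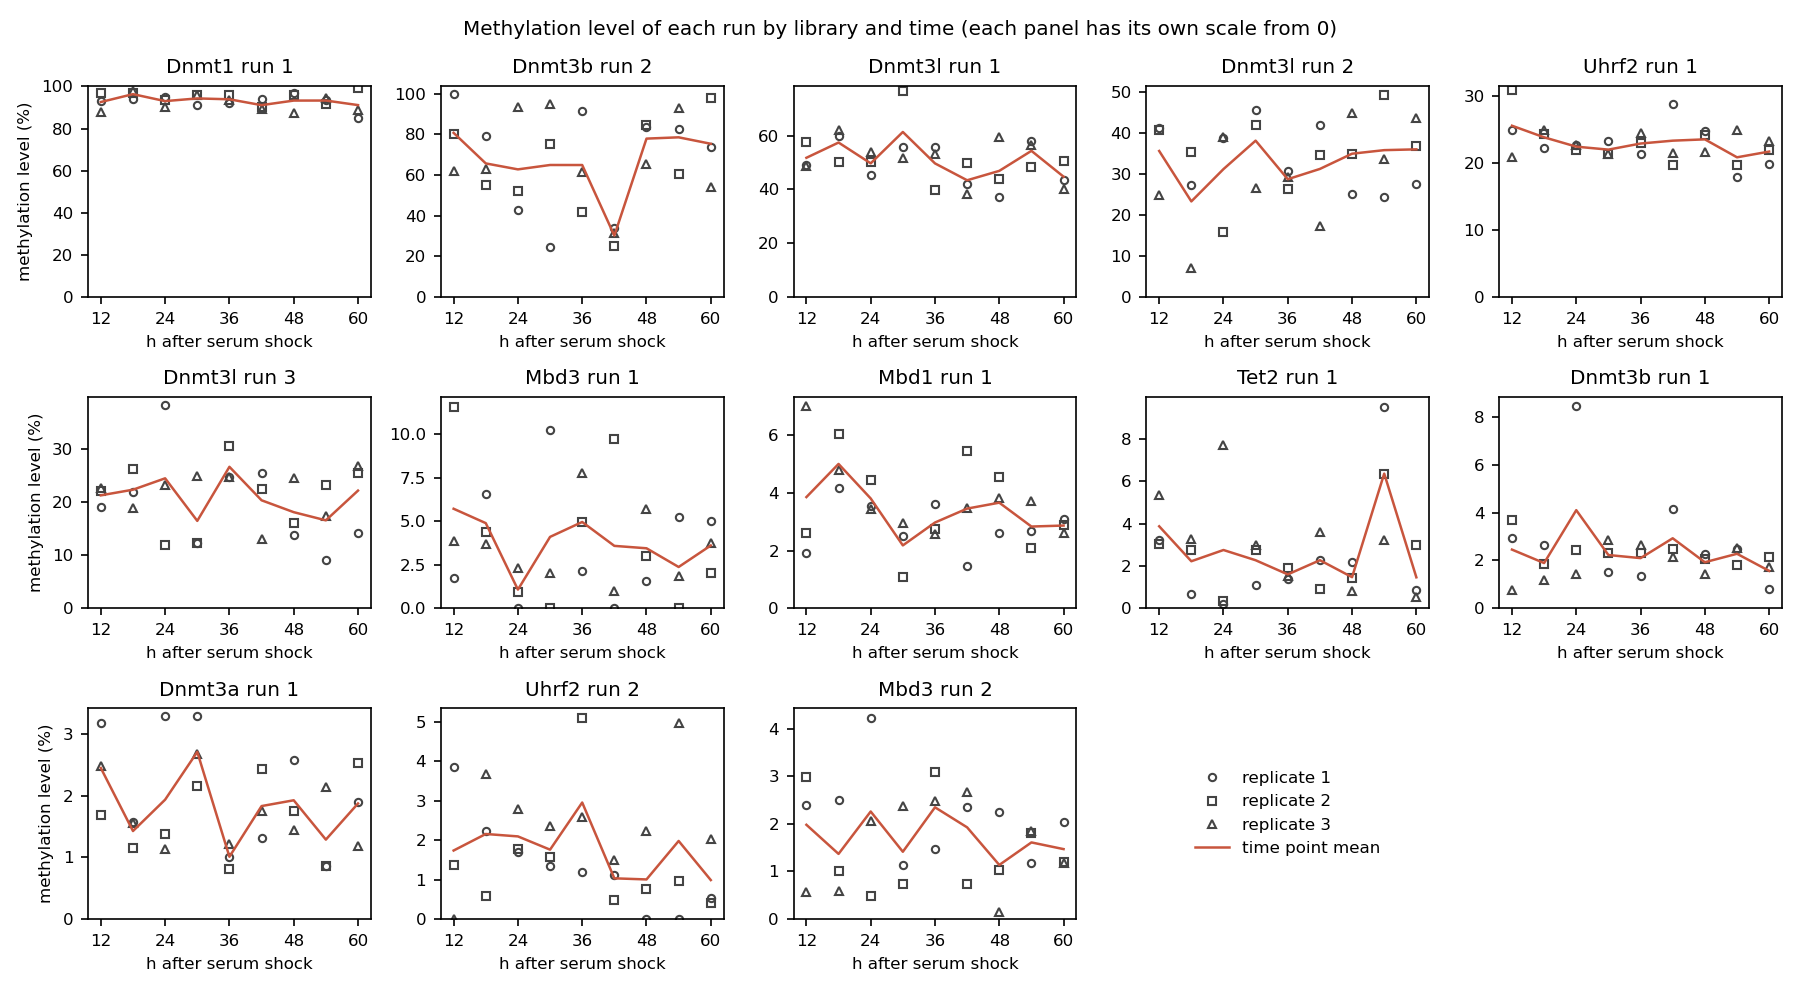
Methylation level (%) of each of the 13 runs against hours after the serum shock, each panel on its own scale from 0. Symbols are the 3 replicates and the line joins the time point means. At 42 h the second Dnmt3b run averages 30.2% and its 3 libraries sit together, and at 54 h Tet2 averages 6.37%.

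Differences between any of the 9 time points were asked with time as a factor. Again 0 of the 13 runs passed in limma and 0 had an unadjusted p under 0.05, while over the genome 0.00542% of runs passed (1 run) and 4.3% had an unadjusted p under 0.05. The smallest p-values were those of Dnmt3l run 1 (0.130), Tet2 (0.138) and the second Dnmt3b run (0.161), all with an adjusted limma p of 0.990. Dnmt3l run 1 had 42.0%, 49.8% and 38.3% at 42 h, against 55.8%, 76.4% and 51.7% at 30 h, the times with the lowest and the highest mean, whose libraries did not overlap. The range of its 9 time point means was 17.9 points. In Tet2 that range was 4.91 points, with a mean of 1.46% ± 1.32 at 60 h against 6.37% ± 3.15 at 54 h (SD, n = 3 each). In the second Dnmt3b run it was 50.5 points, with 30.2% at 42 h against 80.7% at 12 h.

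A steady drift was asked with linear time, as points per 48 h. Of the 13 runs 0 passed in limma and 0 had an unadjusted p under 0.05, against 0% and 4.99% of all runs (920 runs at an unadjusted p under 0.05). The slope with the smallest p was that of the first Uhrf2 run, -2.78 (SE 1.54, 95% interval -5.94 to 0.375, unadjusted 0.0817 and adjusted p = 0.977 in limma). Its 3 libraries stood at 19.9%, 21.9% and 23.4% at 60 h, against 24.9%, 30.9% and 21.0% at 12 h, so the last and the first time point overlapped. Dnmt3l run 1 had -8.11 (SE 4.84, interval -18.05 to 1.83, unadjusted 0.106) and Mbd1 -1.27 (SE 0.814, interval -2.94 to 0.405, unadjusted 0.132), both with an adjusted p = 0.977. Slopes were below 0 in 10 of the 13 runs (76.9%), against 50.6% of all runs, with a median of -0.858 against -0.0224 over all runs. Runs of 1 gene share their libraries and some share a locus, so they are not independent.

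**Figure D4:**
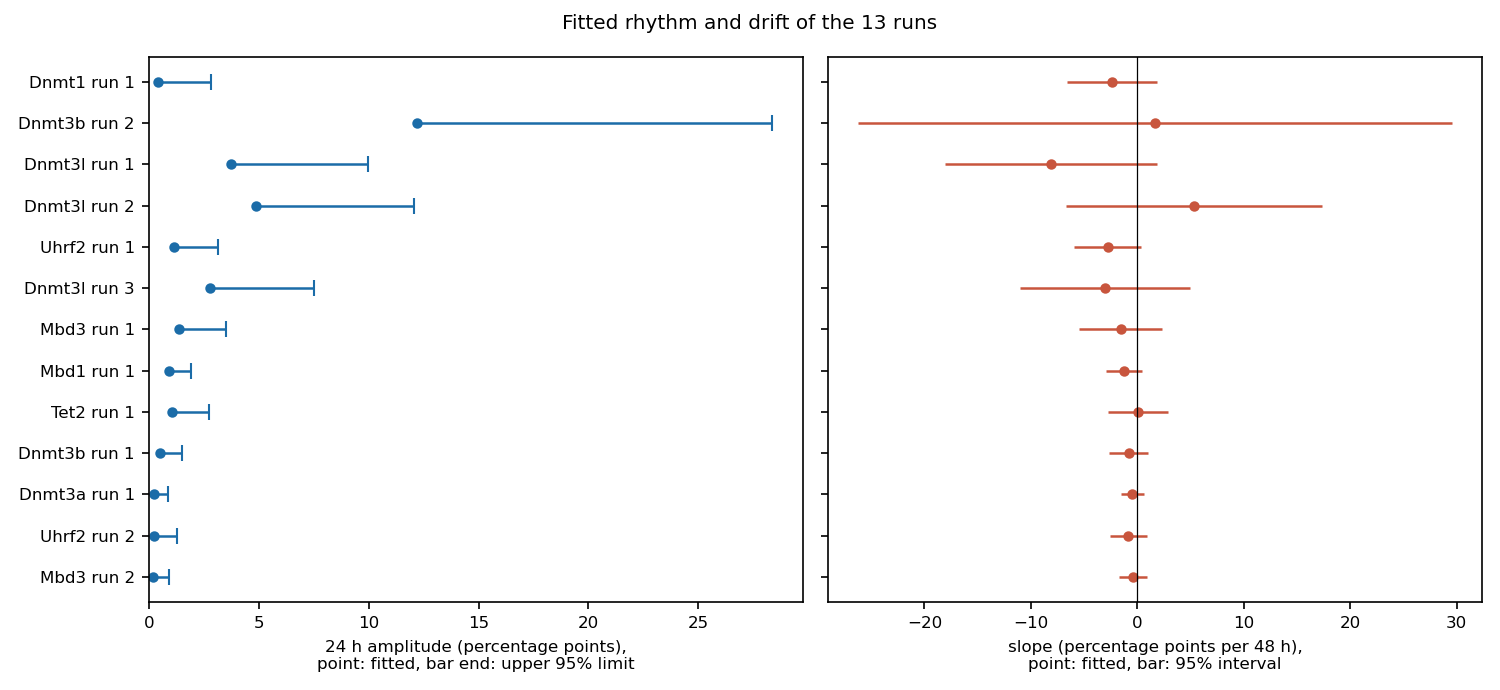
Left, fitted 24 h amplitude (points) with the upper 95% limit as a bar end, and right, fitted slope (percentage points per 48 h) with its 95% interval, for the 13 runs. Every interval of the slope includes 0, and the second Dnmt3b run has the widest bars, from -26.2 to 29.6 points per 48 h.

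At finer scale the runs were split at gaps of 100 bp, which gave 20 shorter runs. None of these passed, and 0, 1 and 2 had an unadjusted limma p under 0.05 for the rhythm, the time factor and the trend. Of all 23502 runs made this way, 4.33%, 4.24% and 4.96% had one, and 0%, 0.00425% and 0% passed, in the same order. The 3 were the upstream Tet2 positions described above in the time factor (range of time point means 17.3 points, unadjusted 0.0223 and adjusted p = 0.988), and 2 in the trend. The 136 Dnmt3a positions at chr12:3806838-3807520, with a level of 1.94%, had a slope of -1.66 points per 48 h (SE 0.739, unadjusted 0.0331 and adjusted p = 0.973). The other parts of that run, of 29 and 75 positions, sloped upward, at 2.59 (SE 1.78) and 0.469 (SE 0.500). The slope of the whole Dnmt3a run was -0.482 (SE 0.526). The 40 Uhrf2 positions at chr19:30029834-30030218, all upstream of the start, had -8.82 (SE 4.01, unadjusted 0.0369 and adjusted p = 0.973). Those Uhrf2 positions stood at 51.2%, 62.8% and 68.4% at 60 h, against 71.7%, 84.7% and 63.2% at 12 h, so the ranges overlapped.

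With each of the 796 positions as a feature of its own, a choice made after the data were seen, 0 passed in limma in any of the tests. For the rhythm 9 positions (1.13%) had an unadjusted p under 0.05, against 3.91% of all 871894 positions, of which 0% passed. For the time factor there were 35 (4.40%), against 4.17% of all positions, of which 0.00413% passed. For the trend there were 29 (3.64%), against 4.48% of all positions, of which 0% passed. Of all kept positions 64.2% lay 1 bp from another, as the C and the G of 1 CG pair do, so these are not independent counts. They lay together: Uhrf2's first run held 17 of the 29 trend positions and Mbd1 10, and Dnmt3a held 18 of the 35 time factor positions and Mbd1 12.

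The wider pathway was read from 42 other genes, of which 38 had at least 1 position. They held 71 runs with a median level of 3.20%, of which 45 lay under 10%, 26 at 10% or more and 12 at 50% or more. At gene starts 43 runs of 28 genes had a median of 2.77%, with 30 of them under 10%. The start run with the highest level belonged to Ehmt2, a histone H3 lysine 9 methyltransferase gene, at 82.8% ± 2.63. It lies 2046 to 1792 bp before the start and overlaps Zbtb12, while the Ehmt2 run over the start stood at 1.72% ± 0.592. Hells, which encodes a chromatin remodeller needed for normal DNA methylation, had 75.4% ± 6.46 in a run 1265 to 1072 bp before its start and 1.88% ± 1.48 from 661 bp after it. Uhrf1, whose product brings Dnmt1 to newly replicated DNA, had 52.7% ± 6.46 and 63.5% ± 12.5 in 2 upstream runs, the farther of which overlaps Arrdc5, and 2.10% ± 1.37 from 310 bp after its start. The runs inside these genes were named after their values were seen, and levels also rose again inside genes. Cxxc4 had 14.5% upstream of its start, 6.66% over it and 47.2% inside the gene. Mbd4 had 2.12% over its start and 26.9% from 517 bp inside it. Ehmt2 itself had 15.4% and 72.9% in body runs and 73.6% at its end.

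Other start runs at 10% or more belonged to Cxxc4, a CXXC domain gene beside Tet2 (14.5% and 47.2%), the base excision glycosylase genes Mbd4 (26.9%) and Neil1 (12.7%), Mat2b (22.2%), a regulatory subunit gene of methionine adenosyltransferase, Kdm2b (11.5%), a CXXC domain demethylase gene, and Mbd6 (23.6%), in a run that overlaps Ddit3. The X-linked genes Zbtb33, whose product Kaiso binds methylated DNA, and Ogt, which encodes a glycosyltransferase that binds Tet proteins, stood at 32.7% ± 5.85 and 38.7% ± 9.36. Over time, 0 of the 71 runs passed in limma in any test, and 1, 1 and 4 had an unadjusted p under 0.05 for the rhythm, the time factor and the trend, against shares of 4.34%, 4.3% and 4.99% over all runs. The smallest rhythm p-values were those of the replication clamp gene Pcna (0.0176), Kdm2a (0.0627) and Hells (0.0687). In the time factor they were those of the growth arrest genes Gadd45b (0.0176), Gadd45g (0.0544) and Gadd45a (0.123), all in runs at the gene end. The start runs of these genes had an unadjusted limma p between 0.130 and 0.800. In the trend they were those of Idh2, a mitochondrial isocitrate dehydrogenase gene, with a slope of 10.8 (SE 3.47, unadjusted 0.00449), Mbd4 with -3.33 (unadjusted 0.0197) and Uhrf1 with -1.70 (unadjusted 0.0404). Each of these slopes is that of 1 run, in Idh2 of 5 positions. The other runs of these genes had slopes of the opposite sign: -1.01 (SE 1.10) in Idh2, 1.29 (SE 1.10) in Mbd4, and 1.30 (SE 3.81) and 0.502 (SE 7.37) in Uhrf1. The smallest adjusted p was 0.977, and slopes were below 0 in 37 of 71 runs, against 50.6% of all runs.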

How the data were processed

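RRBS libraries of C2C12 myotubes were analysed, 3 at each of 9 time points, grouped by the time in the labels. Per the submitters' processing notes, reads were handled with Trim Galore 0.4.0 and cutadapt 1.9.1, then with Bismark 0.14.4 and Bowtie2 against mm10. The authors deposited 1 table of methylation levels as a fraction from 0 to 1, with no read counts or coverage, so the depth is unknown and the planned logistic model on counts could not be used. Positions count from 1: of 249682 positions in RefSeq promoter windows, 124583 fell on the C and 125056 on the G of a CG pair, and 43 elsewhere.

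The table lists 937644 positions. Those without missing values (871894, or 93.0%) were used, as percent. Runs held 3 or more positions (median 32) no farther than 200 bp apart, were cut at the limits of the gene windows, and took the zone of their midpoint. Gene limits are from RefSeq (GRCm38.p6). Its promoter table gave strand. Without it, 5 kb was taken on both sides: this was so for Mbd1 and for 7 of the 42 pathway genes, 1 of which is counted but not reported on its own here. Dnmt3c was not found in the gene table, and Zbtb38, Cdca7l and Usp7 had no position.

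Run means were tested with limma 3.58.1 in R 4.3.3 (with data.table, version 1.17.8), 2-sided and without replicate number, in a linear model with empirical Bayes moderation: the rhythm (F test of a 24 h cosine and sine), time as a factor, and linear time. The upper limit of an amplitude adds the margin that the F distribution gives. The fits in R were tried on simulated data. The other steps used Python 3.11.15 with matplotlib 3.10.9, scipy 1.17.1, pandas 2.3.3 and numpy 2.4.6 and were not. Named were the run nearest each member's start, member runs at 10% or more and the 3 smallest p-values per test, and of the pathway genes, start runs at 10% or more and the 3 smallest p-values; pathway runs beside these were named after their values were seen. The members and lists were chosen with earlier results of these data known. Alternatives changed the scale, gap, run size, filters, summary, covariates, period and libraries used.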

Additional observations from a re-analysis of the deposited data

How the results depend on the processing

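No run of the 8 measured genes passed any test under any alternative run, and their adjusted limma p stayed at 0.879 or above. Over the genome, the rhythm and the trend called 0 runs under every setting. The time factor called 1 run, but 0 on the M-value scale, with a mean level of 10% to 90%, with the run median or with the library mean as a covariate, 2 with a trended robust fit, and 0 to 3 when 1 library was left out: 0 without replicate 1 or 2 of 48 h, 3 if replicate 1 of 18 h was dropped, and 2 if it was replicate 2 or 3 of 24 h, replicate 3 of 30 h, 36 h, 42 h or 48 h, or replicate 1 of 54 h. Leaving out all libraries numbered 1 or 2 gave 0, and numbered 3 gave 2. With the replicate number as a block it called 2. The deviations of same-numbered libraries had a mean correlation of 0.00488 over 108 pairs (-0.0435 to 0.0378), against -0.00241 for other pairs, and 12 of 27 libraries matched best with their own number, so no pairing was taken from the numbers. Replicate 1 still had more positions at exactly 0 than replicate 2 at 8 of 9 times and a lower mean level at 7 of 9. The block changed no other count. The slopes of 8 runs turned sign under at least 1 setting. When 1 library or all libraries of 1 replicate number were left out, they ran from -1.70 (without replicate 3) to 0.0370 (without replicate 1) in Dnmt3b run 1, -4.46 to 8.60 in Dnmt3b run 2 (-4.28 without replicate 2), -1.44 (without replicate 1) to 2.21 in Tet2, -2.53 (without replicate 3) to 14.2 in Dnmt3l run 2, -6.06 to 1.72 (without replicate 1) in Dnmt3l run 3, -2.49 to 0.134 (without replicate 2) in Mbd3 run 1 and -1.95 to 0.282 (without replicate 1) in Uhrf2 run 2. Other settings gave 0.0391 in Dnmt3a (run median), -0.16 (M-value scale, log2) and -2.69 (run median) in Dnmt3b run 2, and -0.10 (M-value scale, log2), -0.607 (1 bp pairs merged) and -0.457 (at least 24 libraries) in Tet2. The causes were not tested. Levels moved by more than 1 SD in Dnmt3a (0.834% with the run median) and Uhrf2 run 1 (2.54% with the run median). With at least 24 libraries, the 2 Uhrf2 runs joined into 1 at 19.7%. The median of the start runs was 3.75% under both other zone rules.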
